A study of Danio rerio with 6 samples.

Results

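The genes described here are those of synaptic vesicles and of the SNARE proteins that fuse them with the membrane, read in whole zebrafish embryos at 5 days post fertilization (dpf). They were chosen by name: a gene of the count table was a member when its zebrafish symbol began with syt and a digit, snap25, stx1, stxbp, vamp1, vamp2, syn1 to syn3, sv2, syp, cplx, rab3, unc13, rims, bsn, pclo, snca or sncb. This rule used no measured value and took 115 of 32520 genes. Spelling alone also drew in genes of other compartments, such as stx10 to stx18 and rab30 to rab39. Symbols were therefore sorted by what their gene family is known to do, with 78 members read as presynaptic and 37 as other. Families were not split further, so the 78 include unc13d, rab3da and rab3db, whose mammalian counterparts are known from cells outside the nervous system. This split was made after the symbols were seen and with earlier results of these data known. The 115 members carry 96 symbols, and 36 members share their symbol with another gene, so such copies are told apart here by chromosome or by identifier.

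The embryos were wild type or sas10 mutants, with 3 libraries of polyA RNA in each group. The labels used here number the replicates but name no allele, strain or clutch. Sas10 is a nucleolar protein of ribosome assembly, encoded in zebrafish by utp3. Each library held 17599625 to 19718753 gene counts, and values are given as CPM, counts per 1000000 on scaled library sizes. The libraries are named by their column headings, wt11, wt12 and wt13 for wild type and s1, s2 and s3 for mutants, and values are listed in that order. Reads of utp3 gave 32.3 ± 4.43 CPM in wild type against 10.8 ± 0.42 in mutants (SD, n = 3 each; log2 -1.58 ± 0.13 SE, adjusted p = 1.53e-06). Across all genes, 62.2% of the 21708 tested differed between the genotypes (edgeR quasi-likelihood test at a Benjamini-Hochberg adjusted p under 0.05), 31.8% being lower and 30.5% higher in mutants. Those shares are the background for every count of members. All 115 members together took 70486, 92468 and 105547 counts in wild type and 47992, 47512 and 58389 in mutants, so that wt11 held fewer than the other wild type libraries at a like depth.

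Neurons release transmitter by fusing vesicles with the plasma membrane at the active zone. VAMP on the vesicle and syntaxin 1 and SNAP25 on the plasma membrane zip into the SNARE complex that drives fusion. Munc13 (unc13) prepares syntaxin, complexins clamp and assist the assembled complex, and synaptotagmins couple it to calcium. Bassoon, Piccolo and RIM scaffold the release site, while synapsins, SV2, synaptophysin and Rab3 sit on the vesicle.

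Presynaptic genes were lower in the mutants across every role. Of 78 presynaptic members, 76 passed the filter on low counts. Of those tested, 68 were lower, 2 higher and 6 not called, where 31.8% of all tested genes were lower and 30.5% higher. A change of 2-fold or more was reached by 47 of the decreases and 1 of the increases, against 16.4% and 13.2% of all tested genes. The median log2 fold change of these 76 was -1.19, beside -0.04 over all tested genes. The genotypes did not overlap in 68 members, 66 with every mutant library under wild type and 2 with every one over it. Of all tested genes, 34.1% were lower and 33.5% higher without overlap. Their summed level was 3314 to 4862 CPM in wild type against 1841 to 2288 CPM in mutants. In whole embryos, fewer cells of a type and less RNA per cell cannot be told apart.

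The 2 presynaptic members left untested were a cplx3 copy (ENSDARG00000062508) and a cplx4 copy (ENSDARG00000059486), with 3 to 10 and 0 to 8 counts per library. Among those tested, stx1a and syt17 passed the filter through wild type alone, being under its level of 0.53 CPM on unscaled library sizes in every mutant library. Only a decrease could be called there, and both genes are counted among the 68 decreases. Reads were counted with no strand option and near-identical copies may exchange reads. The exons of 11 members overlap those of another gene, over more than 10% of their length in syt1b, syt14b, sypl1 and rab3gap2.

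**Figure D1:**
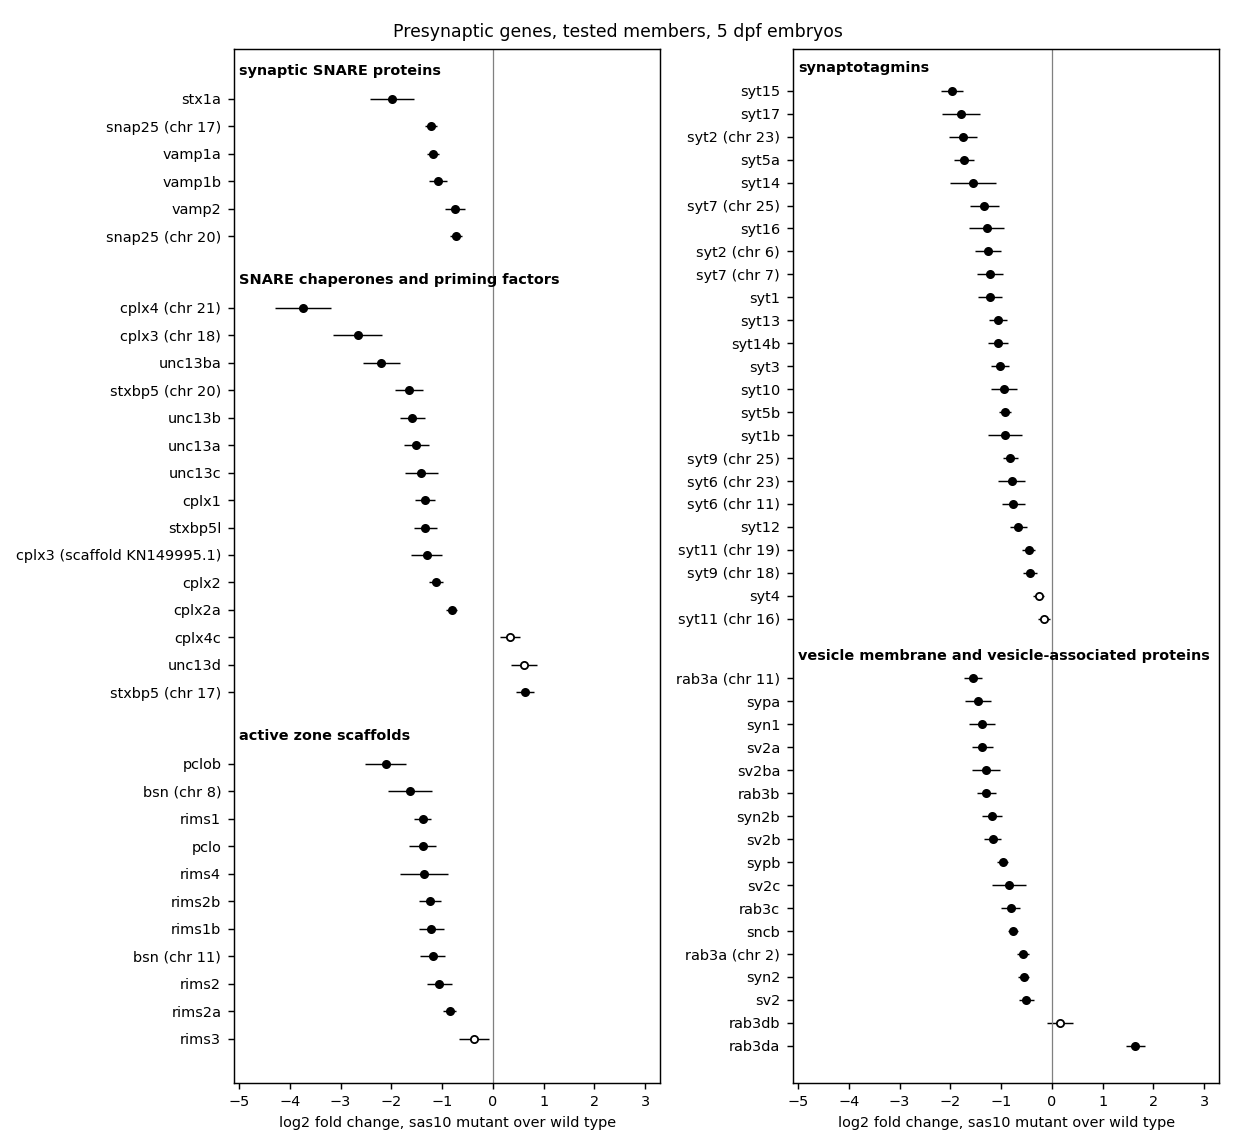
Log2 fold change (sas10 mutant over wild type, horizontal axis) of 73 of the 76 tested presynaptic genes, grouped by role, with bars of 1 SE from the edgeR fit over 3 libraries a group. Filled points were called at an adjusted p under 0.05 and open points were not; 65 filled points lie left of 0 and 2 lie right of it, a stxbp5 copy and rab3da.

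All 7 synaptic SNARE genes fell, with a median log2 fold change of -1.17 and no overlap between the genotypes. Among them stx1a had passed the filter through wild type alone, so only a decrease could be called there. The neuronal t-SNARE SNAP25 is encoded by copies on chromosomes 20 and 17. The copy on chromosome 20 (ENSDARG00000020609, GRCz11 chromosome 20, 34913069 to 34956230) was at 432, 395 and 410.3 CPM in wild type against 240.3, 246 and 261 CPM in mutants (log2 -0.73 ± 0.11 SE, adjusted p = 0.000184). Its wild type libraries stood close together. The copy on chromosome 17 (ENSDARG00000058117, GRCz11 chromosome 17, 12297984 to 12389259) was at 143, 157 and 174 CPM in wild type against 62.2, 69.4 and 71.7 CPM in mutants (log2 -1.22 ± 0.11 SE, adjusted p = 3.45e-06). Every mutant library was under every wild type library for both copies.

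The syntaxin gene stx1a, whose product partners SNAP25 on the plasma membrane, was near the filter at 1.72, 0.786 and 1.39 CPM in wild type against 0.271, 0.380 and 0.311 CPM in mutants (log2 -1.99 ± 0.44 SE, adjusted p = 0.0019). The vesicle SNAREs, or VAMPs, fell too. Values of vamp2 were 52.3, 75.0 and 95.4 CPM in wild type against 43.2, 37.8 and 51.6 CPM in mutants (log2 -0.75 ± 0.20 SE, adjusted p = 0.00865), where the highest mutant library came close to the lowest wild type one. For vamp1a they were 99.0, 113 and 116 against 42.3, 49.2 and 53.7 CPM (log2 -1.17 ± 0.12 SE, adjusted p = 6.58e-06), and for vamp1b 10.8, 10.3 and 12.7 against 4.28, 5.64 and 6.01 CPM (log2 -1.08 ± 0.17 SE, adjusted p = 0.00022). A test against a change of 1.5-fold kept 5 of the 7 SNARE genes and lost vamp2 and the snap25 copy on chromosome 20.

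Among SNARE chaperones and priming factors, 14 of 17 tested genes fell and 1 rose, with 2 left uncalled (median log2 -1.33). The Munc13 genes, which open syntaxin and prime vesicles, fell in 4 of 5 cases: unc13a was at 18.4, 26.3 and 32.9 CPM in wild type against 8.99, 6.51 and 11.7 CPM in mutants (log2 -1.51 ± 0.24 SE, adjusted p = 0.000417). Values of unc13b were 7.60, 13.8 and 15.7 against 4.01, 4.29 and 4.04 CPM (log2 -1.59 ± 0.24 SE, adjusted p = 0.000193) and those of unc13ba 3.996, 8.54 and 11.9 against 1.68, 1.52 and 2.12 CPM (log2 -2.20 ± 0.37 SE, adjusted p = 0.000492). With unc13c (log2 -1.41, adjusted p = 0.00412), these are the 4 that fell, and in the 3 with values given no mutant library reached wild type. In contrast unc13d, whose mammalian counterpart serves granule release in blood cells, was at 2.33, 1.83 and 1.70 CPM in wild type against 2.33, 3.20 and 3.42 CPM in mutants and was not called (log2 0.61, adjusted p = 0.0541); it passed without wt11 or without s1.

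Complexins differed widely in the size of their change. The largest decrease of any member was in a cplx4 copy (ENSDARG00000059978, GRCz11 chromosome 21, 10739846 to 10749542), at 15.4, 43.6 and 63.0 CPM in wild type against 3.09, 2.71 and 3.31 CPM in mutants, 13.4-fold lower (log2 -3.74 ± 0.55 SE, adjusted p = 0.00125). Wild type libraries of this gene spread widely, with wt11 lowest, while the mutants lay together. Next came a cplx3 copy (ENSDARG00000089486, chromosome 18), at 4.61, 9.38 and 17.8 CPM against 1.63, 1.19 and 2.18 CPM (log2 -2.66 ± 0.48 SE, adjusted p = 0.00127; log2 -2.05 without wt13). In mammals complexins 3 and 4 are those of retinal ribbon synapses. Another cplx3 copy (ENSDARG00000099196, scaffold KN149995.1) was low, at 1.94, 1.99 and 2.42 against 0.921, 0.597 and 1.04 CPM (log2 -1.31 ± 0.31 SE, adjusted p = 0.00324). The general neuronal complexins fell less than the cplx4 copy and the chromosome 18 copy of cplx3. Values of cplx2 went from 67.7, 79.5 and 89.9 to 32.8, 33.8 and 42.6 CPM (log2 -1.12 ± 0.14 SE, adjusted p = 3.04e-05). The change was log2 -1.33 in cplx1, close to that of the scaffold copy of cplx3, and -0.82 in cplx2a. A further gene, cplx4c, was at 7.83, 6.61 and 10.3 against 12.5, 8.19 and 10.6 CPM and was not called (log2 0.34, adjusted p = 0.163; called higher without wt13). Of photoreceptor markers, 22 of 27 tested were lower and 3 higher. Their summed level was 3650.4 to 5605 CPM in wild type against 591 to 759 CPM in mutants. Markers of retinal bipolar and amacrine cells were lower in all 13 tested, at a summed 383 to 499 against 175 to 220.3 CPM. The part of these cells in the complexin values was not tested.

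Tomosyn genes went in opposite directions. Tomosyn (stxbp5) carries a SNARE-like motif and holds back SNARE assembly. Its copy on chromosome 20 (ENSDARG00000002656) was at 21.6, 33.4 and 47.1 CPM in wild type against 10.3, 8.68 and 13.6 CPM in mutants (log2 -1.65 ± 0.27 SE, adjusted p = 0.00064). The chromosome 17 copy (ENSDARG00000029234) was at 9.38, 10.6 and 15.3 CPM in wild type against 16.5, 19.699 and 18.9 CPM in mutants (log2 0.64 ± 0.18 SE, adjusted p = 0.00785), higher in every mutant library than in any of wild type. A related gene, stxbp5l, fell (log2 -1.33). The increase on chromosome 17 did not pass against a change of 1.5-fold.

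Active zone scaffolds fell in 10 of 11 genes, 9 of them by at least 2-fold, with a median log2 fold change of -1.24. The annotated genes rims2 and rims2a, both counted as decreases, lie close together on the same strand of chromosome 16. Whether they are parts of the same gene was not tested. Piccolo and Bassoon are giant scaffold proteins that organise the release site, each with 2 zebrafish copies. For pclob (ENSDARG00000098880, GRCz11 chromosome 18, 9615147 to 9722291) the wild type libraries were at 55.6, 130.4 and 168 CPM and the mutants at 24.3, 24.0 and 33.6 CPM, 4.32-fold lower (log2 -2.11 ± 0.40 SE, adjusted p = 0.00354). The pclo copy on chromosome 4 was at 66.7, 121 and 146 against 40.1, 35.9 and 51.8 CPM (log2 -1.38 ± 0.27 SE, adjusted p = 0.00183). In both Piccolo genes wt13 was more than 2 times as high as wt11, yet no mutant library reached wt11.

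In wild type the libraries stood in the same order for both Bassoon copies. The bsn copy on chromosome 8 (ENSDARG00000111110) was at 12.3, 23.0 and 32.7 CPM in wild type against 9.10, 3.80 and 9.01 CPM in mutants (log2 -1.63 ± 0.42 SE, adjusted p = 0.0113; adjusted p = 0.0613 with no filter on low counts), and that on chromosome 11 (ENSDARG00000079161) at 29.0, 45.1 and 52.8 against 20.8, 13.1 and 21.8 CPM (log2 -1.19 ± 0.24 SE, adjusted p = 0.00215). All mutant libraries were under wild type for both. RIM proteins tether calcium channels and vesicles. Of their genes, rims1 was at 21.8, 33.7 and 34.5 against 11.4, 11.12 and 11.96 CPM (log2 -1.38 ± 0.17 SE, adjusted p = 3.03e-05) and rims2a at 25.4, 34.5 and 33.6 against 16.4, 17.4 and 17.9 CPM (log2 -0.85 ± 0.14 SE, adjusted p = 0.000212). The short RIM gene rims3 was at 2.28, 3.04 and 4.17 against 1.90, 2.17 and 3.26 CPM and was not called (log2 -0.37, adjusted p = 0.286). Its relative rims4, under 5 CPM and overlapping between genotypes, fell by 1.35 on the log2 scale and lost its call without s1, s2, wt12 or wt13; without s3 the value was -2.03.

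Synaptotagmins, the calcium sensors of secretion and their calcium-independent relatives, fell in 22 of 24 genes and rose in 0 by edgeR, where 2 were not called (median log2 -1.04). The 22 include syt17, which had passed the filter through wild type alone. No synaptotagmin was higher at an unadjusted p under 0.05 or in any alternative, since all 24 fold changes were negative. The fast sensor syt1 (ENSDARG00000030614, GRCz11 chromosome 4, 21129752 to 21315399) had the highest mean level per exon length of the family, 114 ± 47.8 transcripts per 1000000 (TPM) in wild type, with syt5b at 81.0 ± 15.1 TPM within its spread. Its libraries were at 187, 313 and 373 CPM in wild type against 112, 112 and 151 CPM in mutants (log2 -1.22 ± 0.23 SE, adjusted p = 0.00133). Both syt2 copies, for a second fast sensor, fell: that on chromosome 23 (ENSDARG00000025206) was at 6.49, 8.81 and 11.07 against 3.31, 1.68 and 2.85 CPM (log2 -1.75 ± 0.27 SE, adjusted p = 0.000167) and that on chromosome 6 (ENSDARG00000014169) at 2.72, 4.35 and 4.02 against 1.68, 1.57 and 1.40 CPM (log2 -1.25 ± 0.26 SE, adjusted p = 0.00127). The mutants lay below wild type in all 3 of these genes.

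The largest synaptotagmin decrease was in syt15, a member without known calcium binding, at 5.55, 5.82 and 5.92 CPM in wild type against 1.19, 1.47 and 1.76 CPM in mutants (log2 -1.96 ± 0.22 SE, adjusted p = 1.4e-05); 7.22% of its exon length overlaps another gene. Of the genes for the slow sensor syt7, both copies fell (log2 -1.33 on chromosome 25 and -1.22 on chromosome 7). The low syt1b, with 30.5% of its exon length shared with another gene, was at 2.28, 1.94 and 2.94 against 1.41, 0.705 and 1.66 CPM (log2 -0.92 ± 0.33 SE, adjusted p = 0.0316) and lost its call without s1, s2 or wt13. At the other end, syt4 and a syt11 copy, of a subfamily apart from the fast sensors, were not called: syt4 was at 45.4, 42.9 and 40.8 against 32.9, 38.4 and 36.5 CPM (log2 -0.26, adjusted p = 0.0541; no overlap, and called lower with upper-quartile scaling, the stricter filter or the replicate block) and the syt11 copy on chromosome 16 at 29.6, 25.7 and 26.5 against 23.9, 23.5 and 26.1 CPM (log2 -0.15, adjusted p = 0.253; called lower with upper-quartile scaling). The other syt11 copy, on chromosome 19, fell by 0.46 on the log2 scale (not called without s1 or s2). A syt6 copy on chromosome 11 (log2 -0.76) lies 1.75 Mb from utp3, lost its call without wt13, and was the only called member within 10 Mb of it; an effect of linked alleles was not tested. Against a change of 1.5-fold, 14 synaptotagmins were lower.

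Of 17 genes for proteins on or around the vesicle, 15 fell and 1 rose, with 1 left uncalled (median log2 -0.96). Synaptophysin, a major vesicle membrane protein, has genes sypa and sypb, both on chromosome 8. Values of sypa (ENSDARG00000110528) were 151, 236 and 301 CPM in wild type against 85.6, 62.5 and 102 CPM in mutants (log2 -1.46 ± 0.26 SE, adjusted p = 0.000948), and those of sypb (ENSDARG00000002230) were 128, 131 and 127 against 58.8, 68.5 and 70.7 CPM (log2 -0.96 ± 0.11 SE, adjusted p = 1.28e-05). Wild type libraries differed in sypa and hardly in sypb, and no mutant library reached them in either gene. The transporter-like vesicle protein SV2A fell likewise: sv2a was at 140.2, 228 and 239.9 against 78.2, 63.5 and 93.2 CPM (log2 -1.37 ± 0.21 SE, adjusted p = 0.000274).

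Synapsins, which tether vesicles in the reserve pool, fell in all 3 genes tested. For syn1 the libraries were at 31.3, 62.4 and 63.2 CPM in wild type against 21.3, 16.4 and 22.9 CPM in mutants (log2 -1.37 ± 0.26 SE, adjusted p = 0.00138), for syn2b at 18.9, 31.0 and 32.03 against 13.4, 10.04 and 12.6 CPM (log2 -1.19 ± 0.20 SE, adjusted p = 0.000387), and for syn2 on chromosome 23 at 85.7, 86.7 and 84.8 against 55.5, 53.4 and 66.1 CPM (log2 -0.55 ± 0.11 SE, adjusted p = 0.000981). The smallest of these decreases was that of syn2. Beta-synuclein, a small presynaptic protein that binds membranes, showed little spread within a genotype: sncb was at 144, 145 and 152 CPM in wild type against 86.1, 84.7 and 88.7 CPM in mutants (log2 -0.76 ± 0.10 SE, adjusted p = 4.04e-05).

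Rab3 GTPases bind vesicles in their active form and recruit RIM. Of the rab3a copies, that on chromosome 11 (ENSDARG00000043835) was at 13.6, 16.9 and 20.9 CPM in wild type against 5.96, 5.48 and 6.11 CPM in mutants (log2 -1.55 ± 0.17 SE, adjusted p = 1.38e-05), and that on chromosome 2 (ENSDARG00000056347) at 23.7, 29.3 and 29.4 against 18.4, 18.9 and 18.0 CPM (log2 -0.57 ± 0.12 SE, adjusted p = 0.00167). The exception of the group was rab3da (ENSDARG00000018107, GRCz11 chromosome 1, 52178916 to 52201279), at 7.44, 6.19 and 4.27 CPM in wild type against 16.8, 20.3 and 18.9 CPM in mutants, 3.13-fold higher (log2 1.65 ± 0.19 SE, adjusted p = 1.62e-05). In mammals Rab3D is the form of secretory cells outside the nervous system. The second Rab3D gene, rab3db, was at 2.16, 2.15 and 1.80 against 2.71, 2.01 and 2.12 CPM and was not called (log2 0.16, adjusted p = 0.592). Among the low members, sv2c (log2 -0.85) lost its call in 7 of 14 alternatives, among them DESeq2 and limma voom, and was at -0.41 without wt13.

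**Figure D2:**
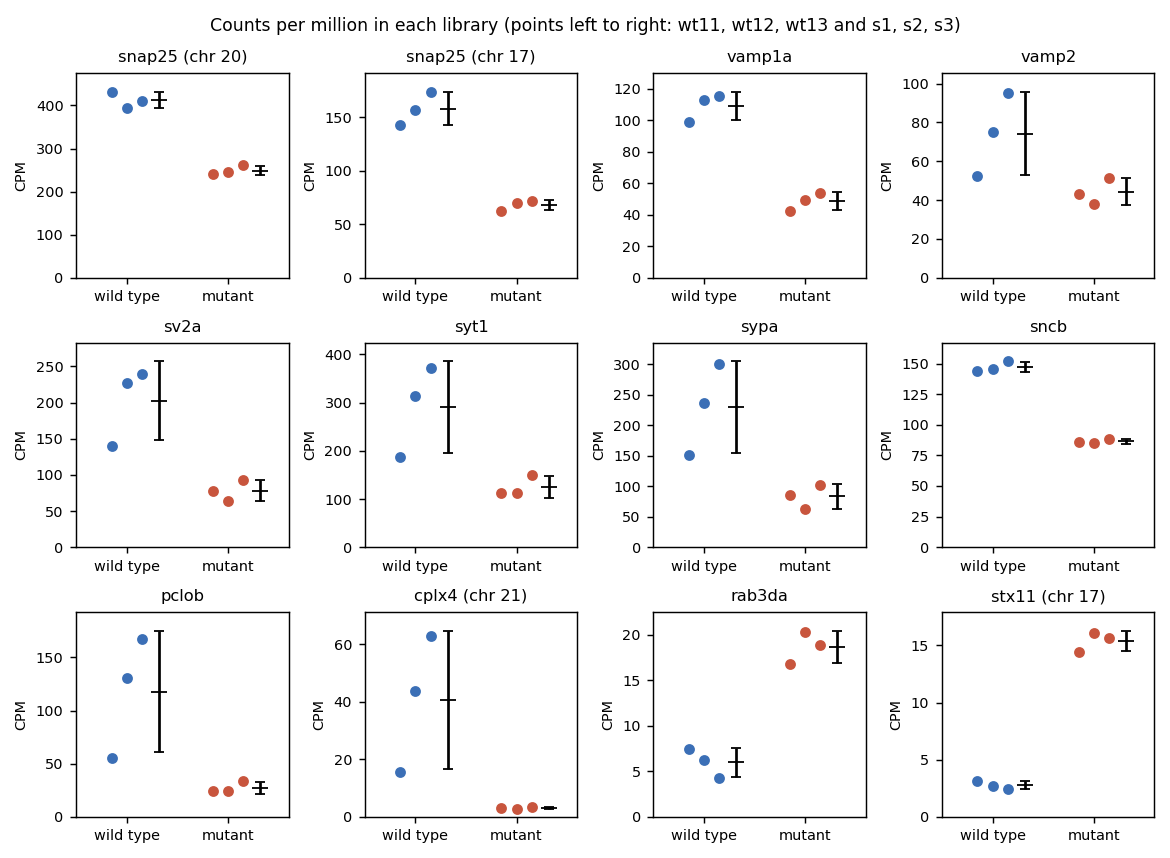
CPM of 12 members in each library, one panel a gene (vertical axes start at 0 and differ between panels), with wild type points in blue, mutant points in red, and the mean and SD of 3 libraries beside each group. Of the panels, 10 are lower in all mutant libraries than in any wild type library, and rab3da and the stx11 copy on chromosome 17 are higher. The lowest wild type point is wt11 for the snap25 copy on chromosome 17, vamp1a, vamp2, sv2a, syt1, sypa, pclob and cplx4, and by a small margin for sncb.

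Levels of different genes were compared in TPM, a level per exon length computed from the counts. The most abundant presynaptic transcript in wild type was sncb, at 589 ± 83.1 TPM (mean ± SD, n = 3), followed by the snap25 copy on chromosome 20 at 299.9 ± 28.9 TPM. Other high transcripts were snap25 on chromosome 17 (176 ± 37.0), vamp2 (171 ± 67.5) and cplx1 (154 ± 48.7 TPM), whose order is within their spread. In mutants sncb was at 328 ± 11.9 TPM and the snap25 copy on chromosome 20 at 172 ± 10.3 TPM, again first and second. Of these 5 genes, cplx1 had the largest fold decrease (log2 -1.33 ± 0.20 SE), to 56.9 ± 11.5 TPM. That of snap25 on chromosome 17 (log2 -1.22 ± 0.11 SE) was within its error.

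Libraries of a genotype did not hold these transcripts evenly. Among the 76 tested presynaptic members, wt11 was the lowest wild type library for 58 and wt13 the highest for 58. Over all tested genes, wt11 was lowest for 37.2% and wt13 highest for 33.3%. In mutants, s2 was lowest for 42 members and s3 highest for 57, where the shares of all genes were 30.9% and 32.5%. Without wt11, 68 presynaptic members were lower and 3 higher, and the median log2 fold change was -1.31. Without wt13, 62 were lower and 3 higher, with a median of -1.02. What set the wild type libraries apart was not tested.

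Duplicated copies were compared within each library by the ratio of their CPM, which takes out depth and scaling. There were 30 such pairs with both copies tested, each written with the copy of the lower fold change first, so the sign of the difference is set by that choice. In 16 pairs the ratio did not overlap between genotypes. All pairings of the stx11 genes are among them and share genes with each other. Of all tested single genes, 67.6% did not overlap, and no such share was computed for ratios of other genes. With 3 libraries against 3, an exact two-sided permutation test cannot go below p = 0.10, which is 0.19 after Benjamini-Hochberg adjustment over the 30 pairs. The stxbp5 copies on chromosomes 20 and 17 had a log2 ratio of 1.49 ± 0.25 in wild type and -0.78 ± 0.36 in mutants (SD, n = 3), and their groups lay far apart. For rab3a, the ratio of chromosome 11 to chromosome 2 went from -0.69 ± 0.17 to -1.66 ± 0.12. For snap25, chromosome 17 over 20 went from -1.39 ± 0.19 to -1.88 ± 0.06. Pairs whose ratios overlapped between genotypes included vamp1a over vamp1b (3.28 ± 0.15 and 3.20 ± 0.09, a difference of -0.08) and the syt7 copies (-1.96 ± 0.30 and -2.11 ± 0.23). Ratios of the bsn copies also overlapped, at -0.97 ± 0.27 and -1.42 ± 0.32.

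**Figure D3:**
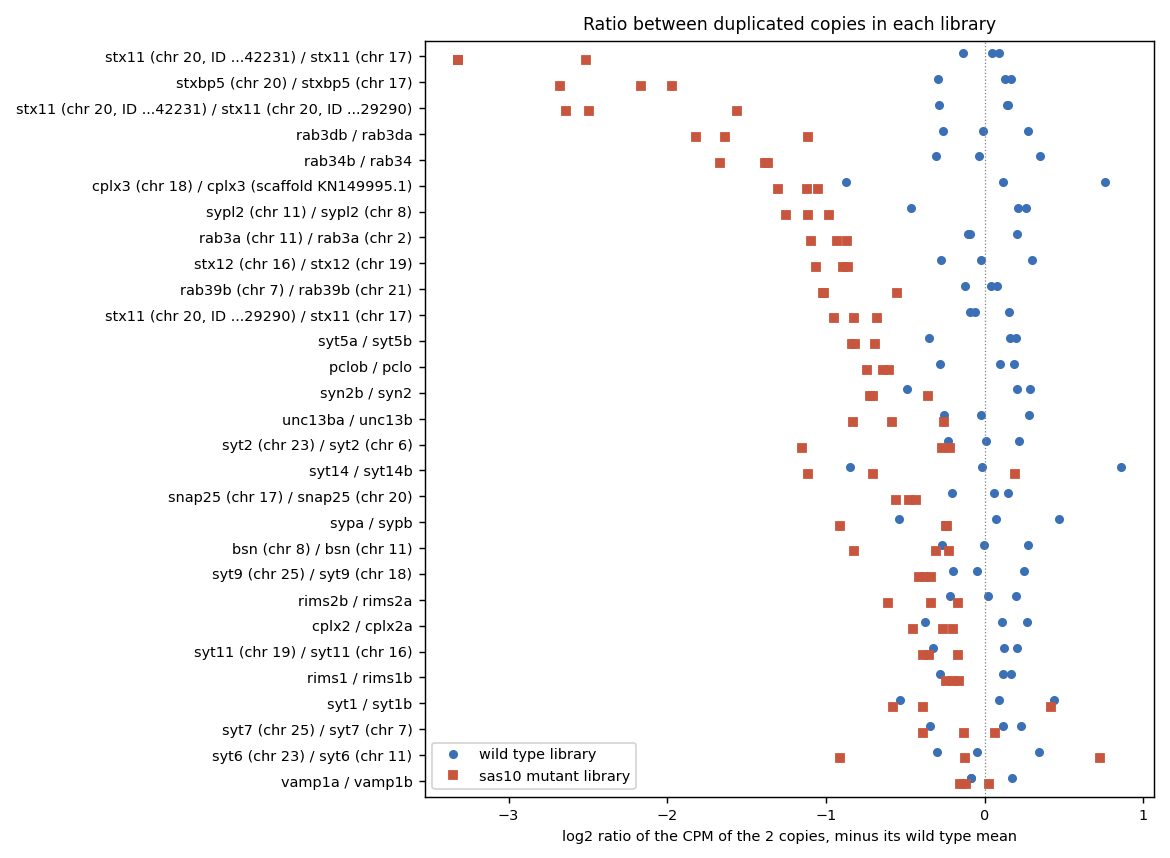
Log2 ratio of the CPM of 2 copies in each library, minus the wild type mean of that ratio (horizontal axis), for 29 of the 30 pairs, ordered by the difference between genotypes; blue circles are wild type libraries and red squares mutant libraries. The copy with the lower fold change is written first, so mutants lie left by construction. The pairs holding the stx11 gene ENSDARG00000042231 and the pair of stxbp5 stand at the top, and 15 of the pairs drawn do not overlap.

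The 37 members read as other showed no common direction. Of 35 tested, 13 were higher, 8 lower and 14 not called, against 30.5% higher and 31.8% lower of all tested genes, and their median log2 fold change was 0.17. A rab32 copy (ENSDARG00000041165) and rab39al were not tested, at 3 to 16 and 0 to 11 counts per library. Summed over the 37 genes, levels were 571 to 598 CPM in wild type against 696 to 738 CPM in mutants. Without s1 or without wt12, 5 were lower, and with upper-quartile scaling the median was 0.034.

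Syntaxins 10 to 18 work in the Golgi, endosomes, autophagosomes and endoplasmic reticulum, or in granule secretion of blood cells. Of 9 tested, 4 rose, 1 fell and 4 were not called, where 30.5% of all tested genes were higher and 31.8% lower. Syntaxin 11, in mammals the syntaxin of cytotoxic granules, has 3 genes here, and 2 of them rose. The copy on chromosome 17 (ENSDARG00000044039, GRCz11 chromosome 17, 7727464 to 7733037) was at 3.16, 2.73 and 2.42 CPM in wild type against 14.4, 16.1 and 15.6 CPM in mutants, 5.55-fold higher (log2 2.47 ± 0.16 SE, adjusted p = 1.9e-07), the largest increase of any member. A copy on chromosome 20 (ENSDARG00000029290) was at 14.8, 14.7 and 11.02 against 43.8, 40.6 and 43.0 CPM (log2 1.65 ± 0.13 SE, adjusted p = 1.03e-06). A second gene of that name on chromosome 20 (ENSDARG00000042231) was at 2.77, 2.04 and 2.06 against 1.19, 2.33 and 1.29 CPM and was not called (log2 -0.51, adjusted p = 0.175; called lower without s2). The other syntaxins that rose were stx18, of the endoplasmic reticulum (log2 0.64, adjusted p = 0.00537), and stx16, of the Golgi (log2 0.36, adjusted p = 0.0122; not called with upper-quartile scaling).

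Endosomal syntaxin 12 (stx12) fell in its chromosome 16 copy (ENSDARG00000044605), from 36.1, 35.6 and 44.9 to 23.9, 22.7 and 25.3 CPM (log2 -0.70 ± 0.12 SE, adjusted p = 0.00046), while the chromosome 19 copy was not called (log2 0.24, adjusted p = 0.0763; called higher without wt11). Of 5 other syntaxin binding proteins, stxbp2, whose mammalian product serves syntaxin 11, rose from 42.9, 38.4 and 33.7 to 68.3, 79.8 and 72.6 CPM (log2 0.94 ± 0.12 SE, adjusted p = 3.54e-05). The amisyn relative stxbp6l fell from 8.27, 10.8 and 11.5 to 2.44, 3.09 and 4.04 CPM (log2 -1.67 ± 0.22 SE, adjusted p = 4.24e-05). A gene of low level, stxbp4, fell by 1.11 on the log2 scale (adjusted p = 0.0145) and lost its call without s1, wt12 or wt13.

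Rab GTPases 30 to 39 are distinct from Rab3 and serve Golgi, endosomes, cilia and pigment granules. Of 12 tested, 4 rose and 4 fell, 33.3% each, close to the 30.5% higher and 31.8% lower of all tested genes. With DESeq2, with no filter on low counts, or without s1, s3 or wt12, 2 fell. The largest increases were in rab34, a Rab of ciliary assembly, from 8.60, 6.03 and 7.67 to 20.7, 23.1 and 22.7 CPM (log2 1.58 ± 0.15 SE, adjusted p = 3.97e-06), and in its relative rab36, from 1.22, 1.101 and 0.721 to 2.98, 3.58 and 2.49 CPM (log2 1.57 ± 0.29 SE, adjusted p = 0.00065); in rab34, 9.54% of the exon length overlaps another gene. The rab39b copy on chromosome 7 (ENSDARG00000036501) fell from 18.2, 15.8 and 18.0 to 9.05, 9.01 and 10.9 CPM (log2 -0.84 ± 0.14 SE, adjusted p = 0.000242). Endosomal recycling gene rab35 rose from 11.5, 8.34 and 9.48 to 26.4, 29.0 and 25.0 CPM (log2 1.46 ± 0.14 SE, adjusted p = 5.23e-06), and the chromosome 20 copy of rab32 rose from 7.21, 5.56 and 5.97 to 10.9, 11.8 and 10.9 CPM (log2 0.85 ± 0.15 SE, adjusted p = 0.000559). The gene rab33a fell from 11.5, 13.8 and 15.7 to 7.15, 6.95 and 9.32 CPM (log2 -0.81 ± 0.17 SE, adjusted p = 0.00154). The gene rab38c, related to a mammalian Rab of pigment granules, was called lower (log2 -0.91, adjusted p = 0.0327) but lost its call in 8 of 14 alternatives, and rab30 (log2 -0.37, adjusted p = 0.0419) lost its own in 7.

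Of 4 regulators of Rab GTPases, 2 rose and 2 were not called, where 30.5% of all tested genes were higher. The genes rab3gap1 (log2 0.03, adjusted p = 0.852) and rab3gap2 (log2 0.13, adjusted p = 0.329), which turn Rab3 off, were not called, and the exchange factor gene rab3il1 rose from 7.49, 8.23 and 8.86 to 11.2, 13.6 and 14.8 CPM (log2 0.69 ± 0.15 SE, adjusted p = 0.0022). Its relative rab3ip was called higher (log2 0.32, adjusted p = 0.0459) but lost that call in 9 of 14 alternatives. A last group of genes was drawn in by the spelling or likeness of the names. In it, the sypl2 copy on chromosome 8 (ENSDARG00000000690), for a synaptophysin-like protein known from skeletal muscle, rose from 13.7, 8.86 and 8.39 to 22.3, 23.2 and 28.2 CPM (log2 1.25 ± 0.19 SE, adjusted p = 0.000139). Synphilin gene sncaip fell from 8.55, 8.60 and 9.68 to 5.80, 3.85 and 4.56 CPM (log2 -0.92 ± 0.18 SE, adjusted p = 0.00107). The increase of sypl1 (log2 0.46, adjusted p = 0.038), with 25.8% of its exon length shared with another gene, did not hold without s1, s3 or wt12 or with upper-quartile scaling. The chloride channel subunit gene bsnd stayed under 1 CPM in all libraries.

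**Figure D4:**
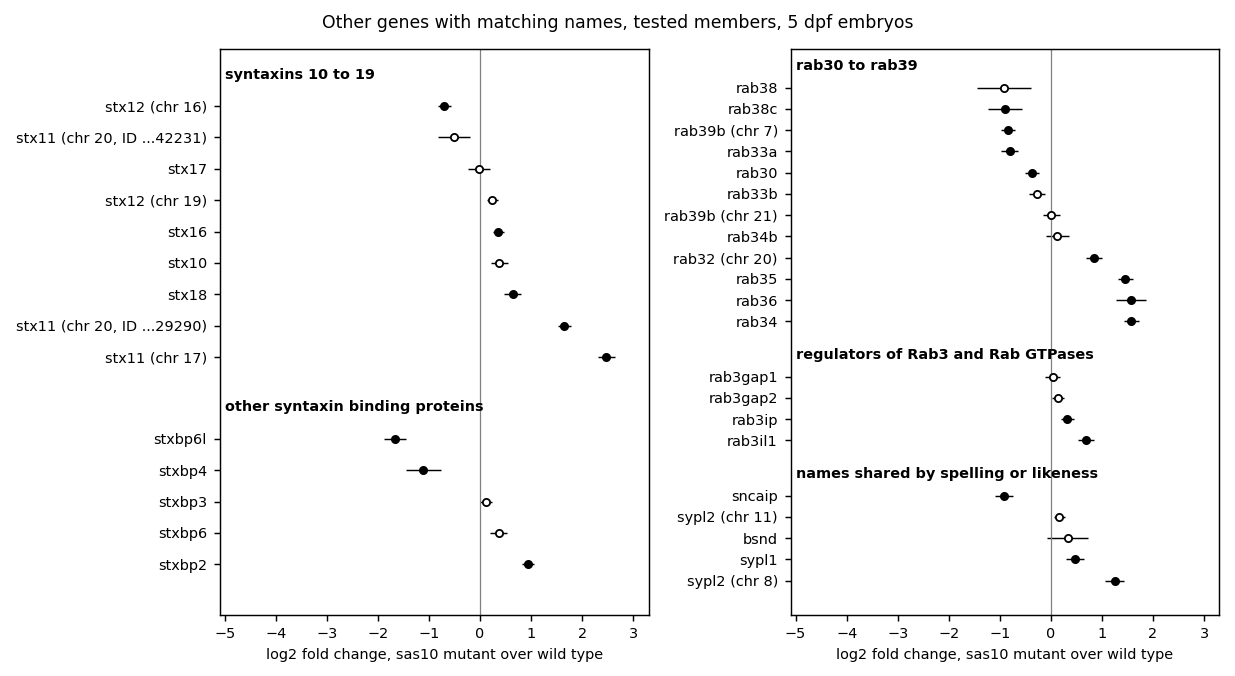
Log2 fold change (sas10 mutant over wild type) of the 35 tested members read as other, with bars of 1 SE from the edgeR fit over 3 libraries a group. Filled points were called at an adjusted p under 0.05. Filled points lie on both sides of 0, 13 to the right and 8 to the left.

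A further 3 lists held presynaptic genes that the name rule leaves out. Genes named from them were chosen after their values were seen. Of 30 tested genes of vesicle recycling and fusion, 21 fell and 5 rose (median log2 -0.94). The ATPase gene nsf, whose product takes spent SNARE complexes apart, fell from 171 ± 6.002 to 103 ± 7.55 CPM (log2 -0.73). Those that rose were a bin1 copy on chromosome 6 (log2 1.23), dnajc5ga (0.72), nsfb (0.72), a napa copy on chromosome 18 (0.65) and an itsn2 copy on chromosome 17 (0.32), and against a change of 1.5-fold 12 of the list fell and 1 rose. Among 26 tested active zone partners and adhesion genes, 21 fell and 1 rose (median log2 -1.05). A copy of rimbp2, which links RIM to calcium channels, fell from 18.1 ± 7.06 to 4.43 ± 0.270 CPM (log2 -2.03). The gene that rose was a cask copy (log2 0.36), not called with upper-quartile scaling or without wt12.

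Of 22 genes that make transmitters or load and clear them, 16 fell and 1 rose (median log2 -0.92). GABA synthesis genes gad1 on chromosome 6 and gad2 fell from 213 ± 23.4 to 75.1 ± 10.04 CPM (log2 -1.50) and from 177 ± 36.5 to 60.6 ± 14.0 CPM (log2 -1.55). A copy of slc17a7, for a vesicular glutamate transporter, fell from 12.7 ± 4.47 to 2.13 ± 0.349 CPM (log2 -2.57). The serotonin synthesis gene tph2 was called higher (log2 0.46) but not without s1, s3, wt12 or wt13 or with upper-quartile scaling. Both vesicular acetylcholine transporter copies, slc18a3 on chromosomes 13 and 12, were not called (log2 -0.14 and -0.10), the latter at a mean under 1 CPM in each genotype. The acetylcholine synthesis gene chat fell from 34.0 ± 3.45 to 18.4 ± 0.790 CPM (log2 -0.88).

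Markers of neurons, listed by name without the members, were read beside these results. Of 26 tested, 18 were lower and 2 higher (median log2 -0.77), and their summed level was 2119 to 2318 CPM in wild type against 1301 to 1535 CPM in mutants. Higher in mutants were uchl1 (log2 0.88) and a stmn4 copy on chromosome 17 (log2 0.93). The axon growth gene gap43 was not called (log2 0.08), nor was maptb (log2 -0.08). The ratio of summed presynaptic to summed neuron marker CPM was log2 0.64, 0.92 and 1.07 in wild type and 0.44, 0.50 and 0.58 in mutants. All mutant libraries were below all of wild type, with wt11 close to s3. The difference was -0.37 (exact two-sided permutation p = 0.10, the smallest 3 against 3 allow; 0.15 adjusted over 6 ratios), -0.49 without wt11 and -0.28 without wt13. By role it was -0.74 for active zone scaffolds (exact p = 0.10; -1.03 without wt11 and -0.53 without wt13), -0.38 for SNARE proteins (exact p = 0.10), -0.38 for vesicle proteins (exact p = 0.10), -0.35 for chaperones and priming factors (exact p = 0.20) and -0.21 for synaptotagmins (exact p = 0.30). The last 2 overlapped between genotypes.

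Other tissues did not move alike. Hair cell markers were lower in 11 of 16 and higher in 1, at a summed 209 to 220.3 CPM in wild type against 165 to 169.7 CPM in mutants. The largest part of these sums was a myo6 copy on chromosome 20, at 67.8 ± 1.1 against 74.1 ± 2.2 CPM and not called. Neuroendocrine and islet markers, cells that also release by SNAREs, were lower in 9 of 14 and higher in 2. They summed to 917 to 1002 CPM in wild type against 676 to 733 CPM in mutants. The 2 that rose were islet hormone genes, gcga (log2 3.29, from 7.26 ± 0.949 to 71.1 ± 14.4 CPM) and ins (log2 1.05). Another hormone gene tested, sst2, was not called (log2 0.63), and hormone genes were singled out after the values were seen. Markers of astroglia and oligodendrocytes were lower in 8 of 16 and higher in 5, and summed to 1817 to 1988 CPM in wild type against 2494 to 2839.5 CPM in mutants, with a median log2 of -0.32. The higher sum rests on the 2 glul genes, for glutamine synthetase, at 657 to 797 against 1738 to 1953 CPM. The other 14 genes summed to 1068 to 1190.2 CPM in wild type against 756 to 886 CPM in mutants, a comparison chosen after the values were seen. The largest part of that fall was in a slc1a2 copy on chromosome 25, from 344 ± 113 to 148 ± 42.8 CPM. All 8 decreases are among these 14 genes. In contrast gfap (log2 0.31) and the fabp7 genes on chromosomes 17 and 20 (log2 0.56 and 0.70), also among them, were called higher. Of skeletal muscle markers, 1 of 11 was lower and 5 higher (44166 to 59837 against 60448 to 62383 CPM summed), and of digestive organ markers 12 of 14 were lower and 1 higher (15708 to 23378 against 2472 to 3411 CPM). The labelled source, whole embryos, holds all these cells, and markers of every list were detected in wild type. Their part in the presynaptic values was not tested.

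**Figure D5:**
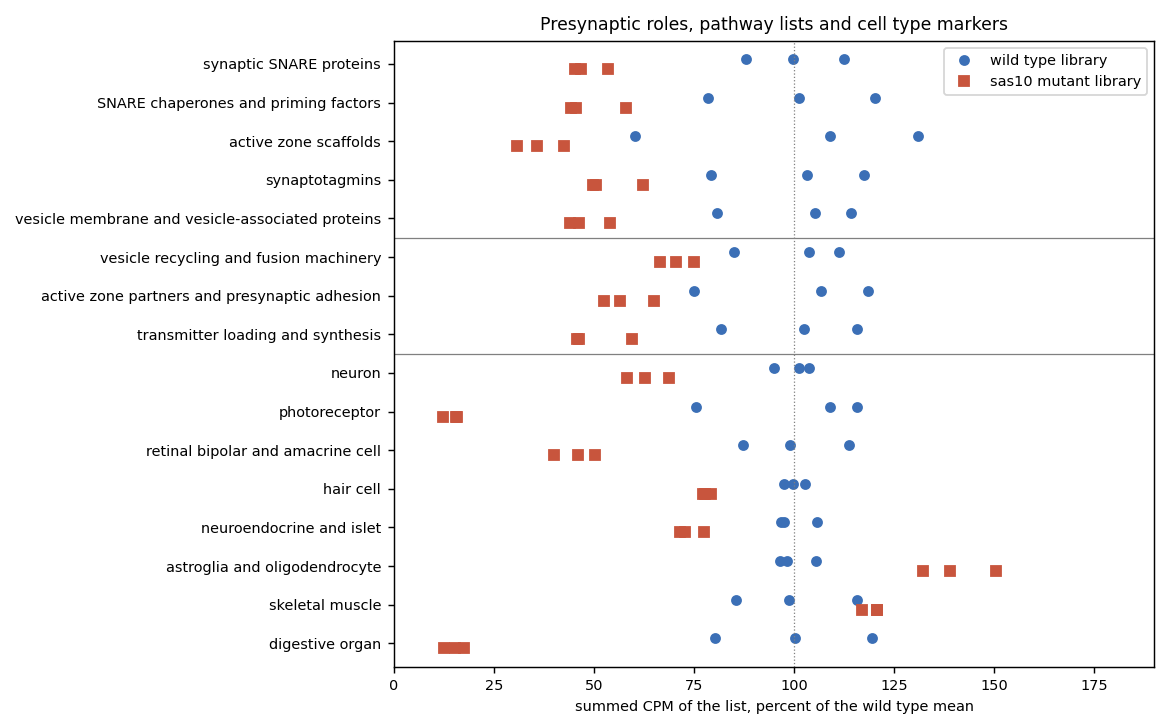
Summed CPM of each gene list in each library as a percentage of its wild type mean (horizontal axis), for 5 presynaptic roles (top), 3 pathway lists (middle) and 8 cell type marker lists (bottom); blue circles are wild type libraries and red squares mutant libraries. In every presynaptic role and pathway list the mutants lie below wild type, and photoreceptor and digestive organ markers lie lowest. Summed markers of astroglia and oligodendrocytes lie above wild type through 2 glul genes. The other 14 of that list sum to less in mutants, although gfap and the fabp7 genes among them were called higher.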

How the data were processed

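RNA sequencing counts of 3 wild type and 3 sas10 mutant libraries of whole embryos at 5 dpf were used. The deposited values are raw counts per gene, which the authors obtained with featureCounts 2.0.1, per the file headers, on exons summed by gene for read pairs, with the GRCz11 annotation of Ensembl release 105 and no strand option. Per the submitters' processing notes, fastp 0.20.0 and HISAT2 2.2.1 were also used. Column headings give the genotype and not the numbered sample. Symbols came from a name table matching 29201 of 32520 identifiers. Members and lists were chosen with earlier results of these data known.

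The whole table was fitted in edgeR 4.0.16 (R 4.3.3) after TMM scaling. Its default expression filter kept 21708 genes and dropped 10812. The quasi-likelihood test used robust dispersions, and calls had a Benjamini-Hochberg adjusted p under 0.05. Standard errors came from the quasi-likelihood statistic. CPM are on scaled library sizes, and TPM were computed from counts and exon length. Replicates differed by more than counting noise, with a chi-square of 7.67 to 32.2 for each degree of freedom. The script was tested on simulated data in which far fewer genes changed than were called here. That test therefore cannot check the scaling or the rate of false calls in these data. Spread among these samples, which may be technical, is all that p-values measure. Full values were given, with some exceptions, for members fixed by name and for the 2 largest called decreases and increases of each role. The latter needed a mean of at least 1 CPM, and of them rab38c, stxbp4, sypl1 and rab3ip were given without library values. Others named were chosen after their values were seen. Set tests were not run. List symbols absent from the name table were matched to a shared symbol without the copy letter. Alternatives were RLE and upper-quartile scaling, 2 filters, DESeq2 1.42.0, limma voom (limma 3.58.1), a 1.5-fold threshold, a replicate block and leaving out each library. The authors' own comparison and the ribosomal precursor table were not used here. No sequence is printed. Values of 3 members that enter the counts are not reported here.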

Additional observations from a re-analysis of the deposited data

How the results depend on the processing

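Under 14 alternatives the presynaptic decreases numbered 51 to 70 and their median log2 fold change ran from -1.32 to -1.02. Of 70 presynaptic calls, 50 held under every alternative that tested them and 0 changed direction by edgeR, DESeq2 or limma. Among the 50, stx1a was tested in 13 of the 14, as the stricter filter dropped it. Against a change of 1.5-fold, 3695 genes were lower and 3462 higher, 51 presynaptic members were lower and 1 higher, and 3 other members were lower and 7 higher, since that test asks for more than a difference. Upper-quartile scaling moved the median of all tested genes from -0.04 to -0.17 and that of the other members to 0.034; it turned the sign of 4 other members that were not called. Leaving out 1 library gave 62 to 68 presynaptic decreases, 2 to 3 presynaptic increases, 5 to 8 decreases and 11 to 15 increases of other members, and 5937 to 7138 decreases and 5923 to 7129 increases over all genes; the cause was not tested. DESeq2 gave 67 and 2 presynaptic calls, and limma voom 67 and 2. The replicate block by the last digit of the headings gave 69 presynaptic decreases and 2 increases. The numbers do not settle whether libraries were paired. Deviations of same-numbered libraries correlated at 0.12, 0.05 and 0.24, and those of differently numbered libraries at -0.20 to 0.07. However, s2 correlated more with wt11 (0.07) than with wt12. Depth limits the members near the filter level of 0.53 CPM.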
